A study of Mus musculus with 8 samples.

Results

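The Toll-like receptor genes Tlr1, Tlr2, Tlr3, Tlr4, Tlr5, Tlr6, Tlr7, Tlr8, Tlr9 and Tlr13 are described here in macrophage-enriched cells of the mouse inguinal fat pad. They were chosen by name, through the Ensembl identifiers of the deposited count table, and are 10 of its 56748 genes. All 10 passed the filter on low counts that left 16780 genes for testing. The mice were wild-type females, of a strain and age that the labels do not state. The Aldara group (4 libraries) received about 62.5 mg of a cream with 5% imiquimod on shaved back skin, daily on 3 consecutive days. The Vehicle group (4 libraries) received an equal volume of control cream, a mix based on Boots Aqueous Cream and Vaseline Lanette Cream. Mice of both groups were killed 24 h after cream was last applied. Each library pooled about 30000 cells from 6 fat pads, held on F4/80 magnetic beads, from preparations with more than 90% F4/80+CD64+ cells. The labels do not name the animals behind each pool, and p-values therefore cover only pool-to-pool spread, which may be technical. Imiquimod and other differences between the creams cannot be told apart.

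Toll-like receptors are innate immune sensors with a leucine-rich ectodomain, which binds microbial or damaged-cell products, and a cytoplasmic TIR domain, which recruits signalling adaptors. Tlr1, Tlr2, Tlr4, Tlr5 and Tlr6 act mainly at the cell surface and read bacterial lipids and flagellin. Tlr3, Tlr7, Tlr8, Tlr9 and Tlr13 act in endosomes and read nucleic acids. Tlr7 is the receptor of imiquimod, and macrophages, dendritic cells and B cells are among its known sites of expression.

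On GRCm38 the surface receptor genes are Tlr1 (ENSMUSG00000044827, chr5:64924679-64933563), Tlr2 (ENSMUSG00000027995, chr3:83836272-83841767), Tlr4 (ENSMUSG00000039005, chr4:66827584-66930284), Tlr5 (ENSMUSG00000079164, chr1:182954788-182976044) and Tlr6 (ENSMUSG00000051498, chr5:64952031-64960097). The endosomal receptor genes are Tlr3 (ENSMUSG00000031639, chr8:45395665-45411080), Tlr7 (ENSMUSG00000044583, chrX:167304929-167330558), Tlr8 (ENSMUSG00000040522, chrX:167242696-167264329), Tlr9 (ENSMUSG00000045322, chr9:106222598-106226883) and Tlr13 (ENSMUSG00000033777, chrX:106143204-106160493). Tlr4, Tlr5, Tlr9 and Tlr13 lie on the plus strand and the others on the minus strand.

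Total counts ranged from 19537607 to 24340674 in Aldara libraries and from 21874780 to 34471508 in Vehicle libraries. Levels are CPM, counts divided by library totals scaled with TMM factors, and a mean ± SD is over n = 4 libraries a group. A log2 fold change is Aldara minus Vehicle from edgeR's quasi-likelihood test, with its standard error (SE) and a p-value adjusted over all genes tested by the Benjamini-Hochberg method, and a gene is said to have risen or fallen where that p lay under 0.05. The labelled cell type was only part of what the libraries held. Summed over 7 epithelial markers the libraries carried 9947 to 12679 CPM in Aldara and 10471 to 14876 CPM in Vehicle. Summed over 20 macrophage markers they carried 4376 to 11805 CPM in Aldara and 1832 to 3852 CPM in Vehicle. The geometric mean of the 20 genes, called the macrophage reference below, was 125, 181, 336 and 320 CPM in Aldara replicates 1 to 4 and 50.7, 72, 99.9 and 72.2 CPM in Vehicle replicates 1 to 4. It was 1.63 higher in Aldara on the log2 scale, and Aldara replicate 1 stood nearest to the Vehicle libraries. In bulk libraries such as these, fewer cells of a type and less RNA per cell cannot be told apart.

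Some sequences bear on how these genes can be read. Tlr1 and Tlr6 are neighbours on chromosome 5 and so alike that a stretch of 229 coding bases is identical in both, at chr5:64925537-64925765 in Tlr1 and chr5:64953828-64954056 in Tlr6 (GRCm38, minus strand, GENCODE M21 transcripts). That stretch runs from base 1468 to base 1696 of the Tlr1 coding sequence.
Shared by Tlr1 and Tlr6: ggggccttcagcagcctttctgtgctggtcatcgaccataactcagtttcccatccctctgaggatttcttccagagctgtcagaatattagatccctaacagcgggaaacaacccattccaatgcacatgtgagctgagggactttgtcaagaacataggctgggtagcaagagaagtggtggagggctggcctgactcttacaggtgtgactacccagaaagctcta
Of all 100-base windows, 8.85% of the Tlr1 transcript and 7.24% of the Tlr6 transcript occurred exactly in the other gene. Reads that lie wholly in such windows fit both genes, and how the counting treated them is not stated, so the values of Tlr1 and Tlr6 are uncertain to that extent. Tlr2, Tlr4, Tlr5, Tlr7, Tlr8, Tlr9 and Tlr13 shared 0 such windows with any other annotated transcript. The longest coding run common to Tlr7 and Tlr8, which are neighbours on the X chromosome, was 13 bases. Tlr3 overlaps the antisense gene Gm45542 over 7.32% of its exon bases, and that gene held 0 counts in all 8 libraries. How reads over both genes were counted is not stated, so the 0 counts do not show whether Tlr3 lost reads there.

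Upstream sequence was available from RefSeq (GRCm38.p6) for 8 of the 10 genes. The letters GAGGAAG, the core bound by the myeloid factor PU.1, were searched on both strands in the 250 bases before each start. They stood in the windows of Tlr1, Tlr9 and Tlr13 and in those of 10.6% of all 32851 promoters. For Tlr1 this was 1 of 2 annotated starts. The matches are printed to show where the letters lie, and capitals mark the motif. Tlr4 and Tlr7 were not searched.
Tlr1, chr5:64933564-64933603, minus strand: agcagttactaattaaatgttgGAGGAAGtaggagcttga
Tlr9, chr9:106222464-106222514, plus strand: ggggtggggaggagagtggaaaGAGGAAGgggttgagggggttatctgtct
Tlr13, chrX:106143170-106143203, plus strand: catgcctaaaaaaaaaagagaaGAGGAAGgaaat
The match lay 23 to 17 bases before the RefSeq start in Tlr1, 112 to 106 bases in Tlr9 and 83 to 77 bases in Tlr13. In Tlr1 and Tlr13 the RefSeq start differs from the GENCODE gene coordinates given above, and the match lies nearer to the latter. An interferon response pattern, GAAA, any 2 bases and GAAA again, occurred as 2 overlapping matches before 1 start of Tlr6, against 2.98% of all promoters with at least 1 match. An NF-kB pattern, GGG, any 2 bases and TTTCC, occurred once before Tlr3, against 1.41% of all promoters. The patterns were chosen with these sequences and the fold changes known, so which genes hold a match supports nothing about their levels.

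**Figure D1:**
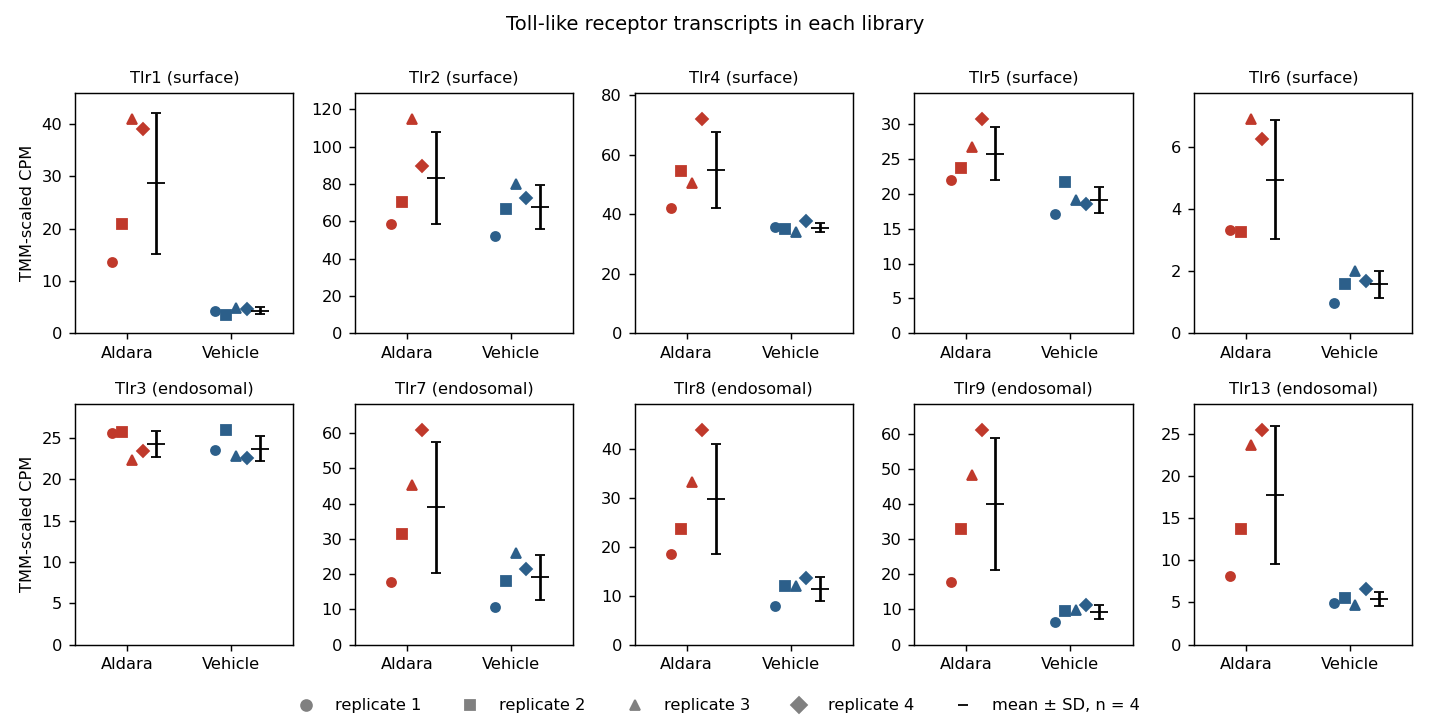
TMM-scaled CPM (y axis, starting at 0) of each receptor gene in the 4 Aldara and 4 Vehicle libraries, with symbols for replicate numbers and black bars for mean ± SD. Tlr1 and Tlr9 separate the groups most widely, from 13.6 to 41 CPM in Aldara against at most 4.86 CPM in Vehicle for Tlr1, while Tlr3 lies between 22.4 and 26 CPM in all 8 libraries.

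Of the 10 receptor genes, 7 rose in Aldara and 0 fell. The risers were Tlr1, Tlr9, Tlr13, Tlr6, Tlr8, Tlr4 and Tlr5, and for each of them the 4 Aldara libraries lay above the 4 Vehicle libraries. Across all genes tested 6.98% rose and 3.86% fell, together 10.8% in either direction. All Aldara libraries lay above all Vehicle libraries for 9.97% of genes, and below them for 7.79%. The median log2 fold change of the 10 genes was 1.21, against 0.006 over all genes tested. No receptor gene was lower at an unadjusted p under 0.05 with edgeR, DESeq2 or voom, where 0 were counted by each. DESeq2 called 7 of the 10 higher and voom 6.

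Tlr7, the receptor that imiquimod binds, was not among the genes that passed. It measured 17.8, 31.5, 45.4 and 60.9 CPM in Aldara replicates 1 to 4 and 10.7, 18, 25.9 and 21.5 CPM in Vehicle replicates 1 to 4. Aldara replicate 1 lay within the Vehicle range, and the other Aldara libraries lay above it. The means were 38.9 ± 18.5 CPM in Aldara and 19 ± 6.42 CPM in Vehicle, a log2 fold change of 1.02 (SE 0.37, 95% interval 0.18 to 1.87, adjusted p = 0.118 by edgeR). With the replicate number as a block, the value was 0.97 (SE 0.14) and passed the test (adjusted p = 0.00209). That fit called 8 of the 10 receptor genes higher, where 9.21% of all genes were higher, 6.14% lower and 15.4% either. Tlr7 also passed without Aldara replicate 1 (1.26, SE 0.31, adjusted p = 0.0332). Replicate 1 was the lowest Tlr7 library in each group.

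Tlr9, which senses unmethylated CpG DNA, had 17.7, 32.9, 48.3 and 61.2 CPM in Aldara libraries, against 6.47, 9.64, 9.86 and 11.3 CPM in Vehicle libraries. The lowest Aldara library exceeded the highest Vehicle library, and the 4 Aldara libraries spread more widely than the 4 Vehicle libraries. Its means were 40 ± 18.8 CPM in Aldara and 9.32 ± 2.04 CPM in Vehicle, with a log2 fold change of 2.09 (SE 0.35, adjusted p = 0.00767). Tlr13, a mouse receptor of bacterial ribosomal RNA, measured 8.15, 13.7, 23.7 and 25.5 CPM in Aldara libraries and 4.92, 5.48, 4.72 and 6.55 CPM in Vehicle libraries. It rose by 1.71 on the log2 scale (SE 0.33, adjusted p = 0.0124). Its Vehicle libraries were close together, at a coefficient of variation of 15.2%, while the Aldara libraries varied by 46.5%.

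Tlr8, the closest relative of Tlr7, measured 18.4, 23.6, 33.2 and 43.8 CPM in Aldara libraries and 7.83, 12, 11.9 and 13.6 CPM in Vehicle libraries. The groups did not overlap, and the log2 fold change was 1.39 (SE 0.27, adjusted p = 0.0136). Tlr3, the endosomal receptor of double-stranded RNA, measured 25.6, 25.7, 22.4 and 23.5 CPM in Aldara libraries and 23.6, 26, 22.8 and 22.6 CPM in Vehicle libraries. The groups overlapped over nearly their whole range. Its log2 fold change was 0.03 (SE 0.09, 95% interval −0.17 to 0.24, adjusted p = 0.866), and Tlr3 varied least of the 10 genes within Aldara, by 6.76%.

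Among the surface receptors Tlr1 moved furthest. Tlr1, which pairs with Tlr2 to bind triacylated lipopeptides, measured 13.6, 20.8, 41 and 39.1 CPM in Aldara libraries and 4.31, 3.43, 4.86 and 4.62 CPM in Vehicle libraries. Its lowest Aldara library stood well clear of every Vehicle library, and the log2 fold change was 2.72 (SE 0.35, adjusted p = 0.00318). Tlr6, which pairs with Tlr2 for diacylated lipopeptides, measured 3.33, 3.27, 6.92 and 6.28 CPM in Aldara libraries and 0.985, 1.6, 2.01 and 1.7 CPM in Vehicle libraries. It rose by 1.63 (SE 0.31, adjusted p = 0.00918) on the log2 scale and had the lowest counts of the 10 genes, 446 over the Aldara libraries and 180 over the Vehicle libraries.

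Their common partner Tlr2 did not pass. It measured 58.6, 70.5, 115 and 89.7 CPM in Aldara libraries and 52.1, 66.7, 80 and 72.5 CPM in Vehicle libraries. The groups overlapped, and the log2 fold change was 0.3 (SE 0.21, 95% interval −0.17 to 0.77, adjusted p = 0.419). The Aldara library was the higher in 4 of 4 same-numbered pairs, and with the replicate block the value was 0.27 (SE 0.09, 95% interval 0.07 to 0.48, adjusted p = 0.0754), which also did not pass.

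Tlr4, the endotoxin receptor, measured 42, 54.7, 50.6 and 72.1 CPM in Aldara libraries and 35.6, 35, 34 and 37.6 CPM in Vehicle libraries. The Vehicle libraries were nearly level, and all Aldara libraries lay above them. The log2 fold change was 0.62 (SE 0.14, adjusted p = 0.0183), and the call was lost without Aldara replicate 2 (adjusted p = 0.0534) or Vehicle replicate 2 (adjusted p = 0.0526). Tlr5, the flagellin receptor, measured 22, 23.7, 26.7 and 30.8 CPM in Aldara libraries and 17.1, 21.7, 19.1 and 18.6 CPM in Vehicle libraries. The groups were separated by a narrow margin, with a log2 fold change of 0.43 (SE 0.12, adjusted p = 0.0477). That call was lost without any 1 library other than Aldara replicate 1, with adjusted p-values up to 0.146, and under upper-quartile factors (adjusted p = 0.0735).

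**Figure D2:**
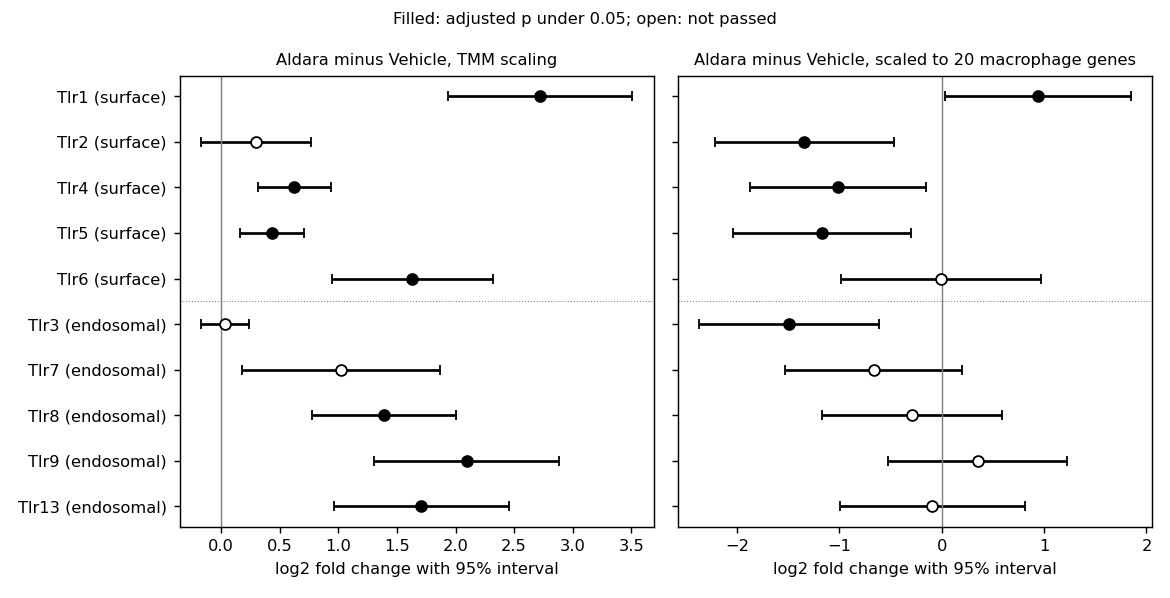
Log2 fold change, Aldara minus Vehicle, with its 95% interval (x axis) for each receptor gene under TMM scaling (left) and scaled to the 20 macrophage genes (right), with filled points where the adjusted p lay under 0.05. On the left 7 points are filled and lie above 0, and on the right Tlr1 is above 0 and Tlr2, Tlr3, Tlr4 and Tlr5 are below it.

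Both classes of receptor held genes that rose and genes that did not pass. Of the endosomal genes 3 of 5 rose and of the surface genes 4 of 5, with median log2 fold changes of 1.39 and 0.62. Mean log2 CPM of the endosomal genes minus that of the surface genes was −0.21, 0.09, −0.04 and 0.2 in Aldara replicates 1 to 4 and −0.23, 0.01, −0.13 and 0.05 in Vehicle replicates 1 to 4. The groups overlapped, with 0.01 ± 0.17 in Aldara and −0.08 ± 0.13 in Vehicle, a difference of 0.09. Between same-numbered libraries the Aldara library was the higher in 4 of 4 pairs, by 0.03 to 0.15. This summary gives no p, since the genes were chosen with earlier results known. It depended on how members were weighed. The difference was 0.38 without Tlr3 and 0.69 with the median of members in place of the mean.

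Levels were compared between genes per kilobase of exon (CPM per kb), which allows for length. Tlr2 was the most abundant receptor transcript in both groups, at 27.7 ± 8.2 CPM per kb in Aldara and 22.5 ± 3.92 in Vehicle. In Vehicle the order below it was Tlr4 at 6.4 ± 0.28, Tlr7 at 4.66 ± 1.57, Tlr3 at 4.56 ± 0.3, Tlr5 at 3.99 ± 0.4, Tlr8 at 3.16 ± 0.68, Tlr9 at 2.68 ± 0.59, Tlr1 at 1.29 ± 0.19, Tlr13 at 1.26 ± 0.19 and Tlr6 at 0.422 ± 0.115 CPM per kb. Ranges of neighbours in this order overlapped except for Tlr2 over Tlr4, Tlr9 over Tlr1 and Tlr13 over Tlr6. In Aldara Tlr9 stood next after Tlr2, at 11.5 ± 5.41 CPM per kb, followed by Tlr4 at 9.87 ± 2.28, Tlr7 at 9.53 ± 4.53, Tlr1 at 8.56 ± 4.05 and Tlr8 at 8.3 ± 3.12. The remaining genes in Aldara were Tlr5 at 5.38 ± 0.8, Tlr3 at 4.67 ± 0.32, Tlr13 at 4.13 ± 1.92 and Tlr6 at 1.33 ± 0.52 CPM per kb. There the ranges of neighbours were separate only for Tlr2 over Tlr9 and Tlr13 over Tlr6. By group means Tlr9 thus had rank 2 in Aldara and rank 7 in Vehicle, and Tlr1 rank 5 in Aldara and rank 8 in Vehicle. Single Aldara libraries did not all keep this order. Tlr9 exceeded Tlr4 in 2 of 4 of them, and Tlr1 exceeded Tlr8 in only 1 of 4. Of the other mouse receptors of this family, Tlr11 passed the filter with 45 counts over the Aldara libraries and 55 over the Vehicle libraries, and did not pass the test (log2 fold change 0.07, SE 0.48, adjusted p = 0.953 by edgeR). Tlr12 did not reach the filter, with 22 counts over the Aldara libraries and 45 over the Vehicle libraries.

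Summed per kilobase, the 10 genes reached 91 ± 28.4 CPM per kb in Aldara and 50.9 ± 6.86 in Vehicle. Endosomal genes made up 36.9%, 41.3%, 39.7% and 46.9% of that sum in Aldara libraries and 30%, 32.8%, 31.7% and 33.2% in Vehicle libraries. The groups did not overlap in this share, which carries no test. It depends on Tlr2, the largest single part of the sum in every library, and the share without Tlr2 is not given here. The share therefore does not describe the endosomal genes as a class. The surface receptor Tlr2 alone held 25.3% to 34.4% of the sum in Aldara and 42% to 46.9% in Vehicle, while Tlr7 held 7.51% to 12.7% in Aldara and 6.36% to 11.2% in Vehicle.

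**Figure D3:**
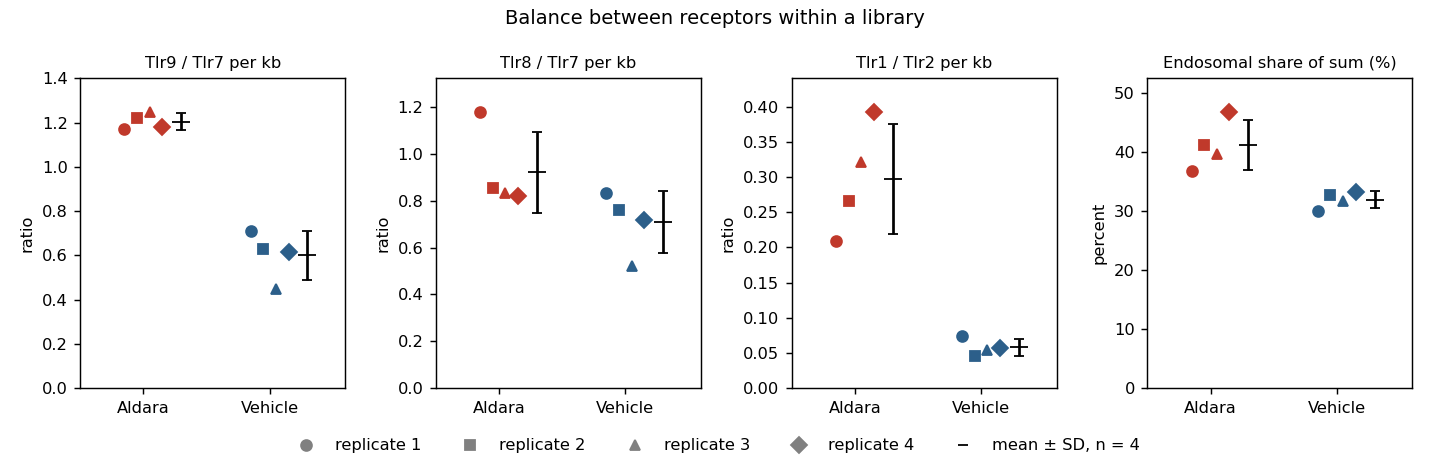
Ratios of CPM per kb between receptor genes and the endosomal share of the summed CPM per kb (y axes, starting at 0) in each library, with black bars for mean ± SD. The ratio of Tlr9 to Tlr7 lies between 1.17 and 1.25 in Aldara and between 0.447 and 0.71 in Vehicle, while that of Tlr8 to Tlr7 overlaps between the groups.

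Ratios between receptor genes within a library do not depend on scaling. Per kilobase, Tlr9 over Tlr7 was 1.17, 1.22, 1.25 and 1.18 in Aldara libraries and 0.71, 0.63, 0.447 and 0.617 in Vehicle libraries. The Aldara libraries were nearly equal in this ratio although their Tlr7 levels ranged from 17.8 to 60.9 CPM. Tlr8 over Tlr7 averaged 0.921 ± 0.174 in Aldara and 0.709 ± 0.133 in Vehicle, and the groups overlapped. Tlr13 over Tlr7 averaged 0.435 ± 0.0431 in Aldara and 0.297 ± 0.108 in Vehicle, also with overlap. Of the dimer partners, Tlr1 over Tlr2 was 0.209, 0.266, 0.321 and 0.393 in Aldara libraries and 0.0746, 0.0463, 0.0547 and 0.0574 in Vehicle libraries. Tlr6 over Tlr2 averaged 0.0471 ± 0.00788 in Aldara and 0.0185 ± 0.0022 in Vehicle, and the groups did not overlap in either ratio to Tlr2. These pairs were chosen with the values of these libraries known, and the ratios carry no test.

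**Figure D4:**
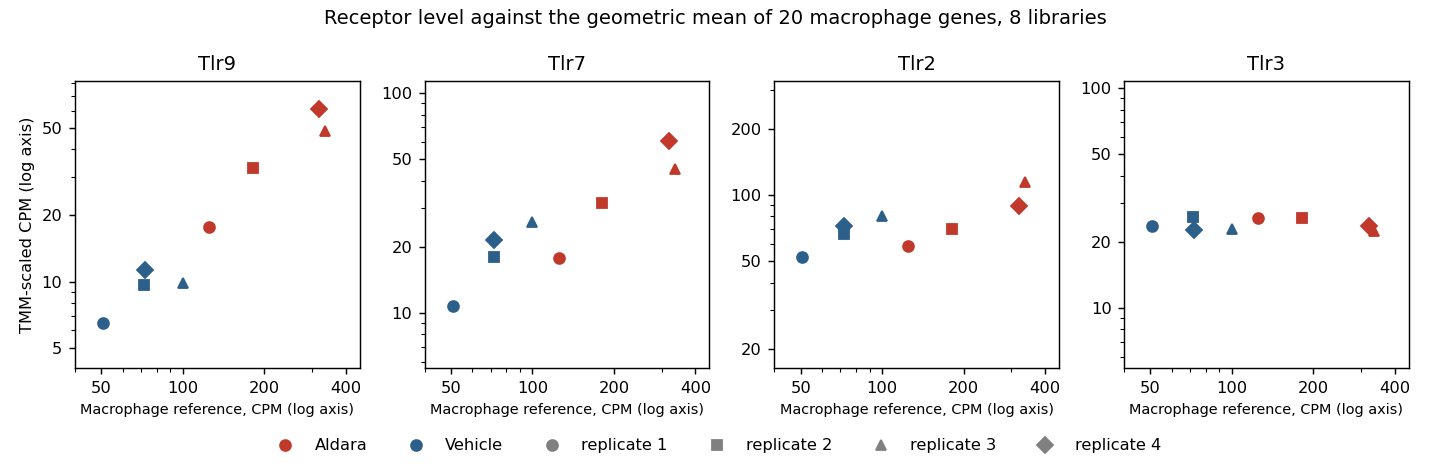
TMM-scaled CPM of Tlr9, Tlr7, Tlr2 and Tlr3 (y axes, log scale of equal span) against the geometric mean CPM of 20 macrophage genes (x axis, log scale) in 4 Aldara and 4 Vehicle libraries. Tlr9 spans 6.47 to 61.2 CPM across the libraries, with all Aldara libraries above all Vehicle libraries on both axes, whereas Tlr3 keeps within 22.4 to 26 CPM.

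The macrophage genes were also higher in Aldara. Of its 20 members 14 rose and 0 fell (19 higher and 0 lower at an unadjusted p under 0.05 with edgeR, and 19 and 14 higher and 0 lower with DESeq2 and voom). Scaled to it, the same edgeR test gave 1 receptor gene higher in Aldara, 4 lower and 5 that did not pass. On that scale 0.34% of all genes tested were higher and 90.6% lower (91% in all), with a median log2 fold change of −1.54, so a fall relative to macrophage genes was the common case. The median of the 10 receptor genes was −0.48.

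Tlr9 (0.35, SE 0.45, adjusted p = 0.441), Tlr6 (−0.01, SE 0.5, adjusted p = 0.984), Tlr13 (−0.09, SE 0.46, adjusted p = 0.849) and Tlr8 (−0.29, SE 0.45, adjusted p = 0.525) did not pass relative to the macrophage reference. Their 95% intervals were wide, from −0.53 to 1.23 for Tlr9 and from −0.99 to 0.97 for Tlr6. Standard errors on this scale lay between 0.44 and 0.5 for all 10 receptor genes, although their own spreads differed. In Aldara, Tlr1 averaged 11.7% ± 0.659 of the reference and Tlr3 12.2% ± 6.49. Intervals and p-values on this scale therefore do not measure the spread of each gene alone. As a share of the reference in CPM, Tlr9 measured 14.2%, 18.2%, 14.4% and 19.1% in Aldara libraries and 12.8%, 13.4%, 9.86% and 15.7% in Vehicle libraries, with overlap. Tlr1 measured 10.9%, 11.5%, 12.2% and 12.2% of the reference in Aldara libraries and 8.5%, 4.76%, 4.86% and 6.41% in Vehicle libraries. Its relative log2 fold change was 0.94 (SE 0.46, adjusted p = 0.0474), a call lost without Aldara replicate 2, 3 or 4 or Vehicle replicate 2, 3 or 4 (adjusted p up to 0.141). Tlr7 measured 14.2%, 17.4%, 13.5% and 19% in Aldara libraries and 21.1%, 24.9%, 25.9% and 29.8% in Vehicle libraries. The groups did not overlap, and every Aldara library was the lower. How many of all genes separated so on this scale was not counted, but 90.6% were lower by the test, with a median of −1.54. The relative log2 fold change of Tlr7 was −0.67 (SE 0.44, adjusted p = 0.138), and with the replicate block −0.67 (SE 0.26, adjusted p = 0.0119). In that block fit 15960 of all 16780 genes were lower and 90 higher, with a median log2 fold change of −1.62.

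Tlr2, Tlr3, Tlr4 and Tlr5 were lower relative to the macrophage reference. Tlr2 averaged 37% ± 7.92 of the reference in Aldara and 94% ± 10.2 in Vehicle, a relative log2 fold change of −1.34 (SE 0.45, adjusted p = 0.00396). Tlr3, at −1.49 (SE 0.45, adjusted p = 0.00182), lay near the median of all genes, and Tlr5 was at −1.17 (SE 0.44, adjusted p = 0.0107). Tlr4 was at −1.01 (SE 0.44, adjusted p = 0.0241), a call lost when Adgre1 and Itgam were left out of the macrophage list (adjusted p = 0.0565) and without Aldara replicate 3 or Vehicle replicate 1, 2 or 4 (adjusted p up to 0.0857). Adgre1, which encodes F4/80, the antigen of the bead selection, measured 967 ± 476 CPM in Aldara and 82.5 ± 20.4 CPM in Vehicle. Csf1r, the receptor of macrophage colony-stimulating factor, averaged 543 ± 211 CPM in Aldara and 274 ± 70.4 CPM in Vehicle, and Fcgr1, which encodes CD64, 26.5 ± 12.3 CPM in Aldara and 19.7 ± 1.85 CPM in Vehicle. Csf1r missed the threshold (adjusted p = 0.0648 by edgeR) but passed with the replicate block (0.00114), and Fcgr1 did not pass (adjusted p = 0.436).

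Markers of other cells that use these receptors were checked in the same libraries. Of the B cell list, whose cells use Tlr7 and Tlr9, only Cd79b of 6 genes was tested, and it rose (5.95 ± 2.71 CPM in Aldara, 0.408 ± 0.141 CPM in Vehicle, adjusted p = 0.000956). The list summed to 3.84 to 9.22 CPM in Aldara and 0.411 to 0.996 CPM in Vehicle, while Cd79a, the partner chain of Cd79b, had at most 9 counts in any Aldara library and 5 in any Vehicle library. Siglech, of plasmacytoid dendritic cells, fell (1.01 ± 0.218 CPM in Aldara, 3.03 ± 1.58 CPM in Vehicle, adjusted p = 0.0163), while its list, mostly Tcf4, summed to 87.7 to 114 CPM in Aldara and 74.1 to 85 CPM in Vehicle. Of the neutrophil list Csf3r and Mmp9 were tested and rose, and it summed to 61.1 to 160 CPM in Aldara and 29.9 to 51.2 CPM in Vehicle, whereas the defining gene Ly6g was at 0 in every library and S100a8 had at most 14 counts in any Aldara library and 4 in any Vehicle library. Conventional dendritic cell markers, with 1 of 4 tested genes lower, summed to 8.33 to 10.4 CPM in Aldara and 10.9 to 15.7 CPM in Vehicle, and T and NK cell markers to 2.03 to 3.87 CPM in Aldara and 1.69 to 3.36 CPM in Vehicle. The part of these cells in the receptor levels was not tested.

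Epithelial, endothelial and stromal cells also carry surface receptors and Tlr3. Of the 7 epithelial markers 0 passed with edgeR or voom and 1 was lower with DESeq2 (1 lower at an unadjusted p under 0.05 with edgeR). Endothelial markers summed to 185 to 344 CPM in Aldara and 195 to 313 CPM in Vehicle. Fibroblast markers, of which 4 of 5 fell, summed to 64.9 to 136 CPM in Aldara and 204 to 556 CPM in Vehicle. Adipocyte markers, of which 2 of 5 rose, summed to 89.8 to 186 CPM in Aldara and 131 to 189 CPM in Vehicle. That adipocyte sum was mostly Fabp4, at 85.7 to 187 CPM, and the other adipocyte markers reached at most 4.1 CPM in any library. The part of epithelial, endothelial and stromal cells in the levels of Tlr2, Tlr3, Tlr4 and Tlr5 was not tested.

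Genes whose pattern over the 8 libraries was most like that of a receptor were found by the root-mean-square difference of centred log2 CPM, among 11495 genes of at least 5 CPM on average. Nearest to Tlr7 were Slc12a5 (0.127), March1, a ubiquitin ligase that acts on MHC class II (0.148), and Ms4a6b (0.151), where Tlr7 itself deviated from its mean by 0.749. Nearest to Tlr9 were Fermt3, the integrin activator kindlin-3 (0.132), Fgd2 (0.154) and Lrmp (0.155). Nearest to Tlr13 were Slc16a6 (0.11), Tnfrsf1b, a receptor of tumour necrosis factor (0.127), and B4galt5 (0.141). Tlr3 had Baz2a (0.035), Usp19 (0.037) and Relch (0.042), where Tlr3 itself deviated from its mean by 0.084. These differences describe 8 libraries in 2 groups and carry no test.

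The genes that serve the receptors moved unevenly. Of 12 co-receptor and trafficking genes 8 rose and 0 fell, with a median log2 fold change of 0.78. Cd180, a receptor homologue that restrains Tlr4 signalling, rose by 1.96 (SE 0.32, adjusted p = 0.00728), and Slc15a3, a lysosomal peptide transporter, by 2.43 (SE 0.38, adjusted p = 0.00629). Unc93b1, which carries endosomal receptors out of the endoplasmic reticulum, rose by 1.7 (SE 0.25, adjusted p = 0.00505) and was at −0.02 relative to the macrophage reference (SE 0.45, adjusted p = 0.971), while the lipid receptor Cd36, a co-receptor of Tlr2, rose by 0.83 (SE 0.15, adjusted p = 0.00716) and was at −0.81 in relative terms (SE 0.45, adjusted p = 0.0781).

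Of 17 adaptors, kinases and ligases 7 rose and 0 fell (median 0.26). Pik3ap1, an adaptor between receptors and phosphoinositide 3-kinase, measured 203 ± 88 CPM in Aldara and 32.5 ± 2.28 CPM in Vehicle, and rose by 2.64 (SE 0.3, adjusted p = 0.00222). Ticam2, the bridging adaptor of Tlr4, rose by 1.66 (SE 0.34, adjusted p = 0.0165). Ikbke, a kinase that activates interferon regulatory factors, rose by 1.52 (SE 0.2). Irak3, an inhibitory relative of the Irak kinases, rose by 1.42 (SE 0.24). Myd88, the adaptor of all these receptors but Tlr3, was singled out after its values were seen. It measured 84.5 ± 10.8 CPM in Aldara and 79 ± 9.43 CPM in Vehicle, a log2 fold change of 0.1 (SE 0.12, 95% interval −0.16 to 0.35, adjusted p = 0.665).

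Of 6 transcription factors downstream 3 rose and 0 fell (median 0.32). They were Irf5 by 1.59 (SE 0.29), Irf7 by 0.5 (SE 0.11) and the NF-kB subunit Nfkb1 by 0.4 (SE 0.1), with adjusted p-values of 0.0112, 0.0164 and 0.0268. Rela, its partner subunit, measured 309 ± 36.7 CPM in Aldara and 262 ± 29.4 CPM in Vehicle (adjusted p = 0.221). Relative to the macrophage reference, the same edgeR test put Irf7 at −1.1 (adjusted p = 0.0159) and Nfkb1 at −1.19 (adjusted p = 0.011). Irf5 was at −0.17 there (adjusted p = 0.704). On that scale 90.6% of all genes were lower. In none of these 3 lists was any gene lower at an unadjusted p under 0.05 with edgeR, DESeq2 or voom (0 by each). Across all genes 6.98% rose, and in the macrophage list 14 of 20 genes did. The 3 lists were chosen with earlier results of these data known, so their shares of risers carry no test.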

How the data were processed

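The values deposited by the authors are raw read counts of each gene in 8 libraries. The submitters' processing notes name mm10, HISAT2 2.0.5, DESeq2 and featureCounts 1.5.0-p3, and no source used here states the annotation or strand setting. Per the labels' protocols the libraries were made with a SMARTer ultra-low-input kit. Symbols came from GENCODE M21 for 91.8% of identifiers, and exon lengths, coordinates and transcripts from the same release (GRCm38).

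From the deposited counts, filterByExpr, TMM factors (0.957 to 1.035) and the robust quasi-likelihood test of edgeR 4.0.16 in R 4.3.3 were applied to all 8 libraries with no covariate. The second fit set library scaling by the geometric mean of 20 macrophage genes. Log2 CPM used a prior count of 2. Alternatives used DESeq2 1.42.0 and voom in limma 3.58.1, other factors, no filter, a replicate block and each library left out. The fit was tested on simulated data. No 2 libraries of a group were duplicates (lowest chi-square per degree of freedom 20.2).

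Both groups carry replicate numbers 1 to 4 in the labels. Deviations from group means correlated at 0.228, 0.108, 0.167 and 0.218 in same-numbered libraries and from −0.216 to 0.082 in other pairs. On the data alone, the numbers were taken to pair the samples. The main fit nevertheless has no block. The block fit rests on a pairing read from the same counts, so its calls stand beside the main calls and do not replace them. The receptor genes, marker lists and pathway lists were chosen with earlier results of these data known. Named genes are the 10 receptors, up to 4 genes of smallest p per pathway list, the 3 nearest patterns, and reference and marker genes. Protein sequences were not used here.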

Additional observations from a re-analysis of the deposited data

Results flagged for a closer look

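Tlr11 measured 0.932 CPM in Vehicle replicate 3, against 0.281 to 0.32 CPM in the other Vehicle libraries, a gap of 0.941 of the range of that group. This library stood apart from the other 3 by Dixon's criterion for 4 samples. It was 1 of 24 groups of libraries checked, over the 10 receptor genes and Tlr11 and Tlr12, where chance marks about 1 in 20. The value rests on 33 counts, and Tlr11 did not pass the test between the groups (adjusted p = 0.953 by edgeR).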

How the results depend on the processing

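The count of 7 receptor genes higher in Aldara was 4 with no filter on low counts, where 31704 genes share the adjustment and Tlr5, Tlr8 and Tlr13 missed the threshold. It was 8 with the replicate block, 7 with DESeq2, 6 with voom, DESeq2 size factors or upper-quartile factors, and 5 to 8 when single libraries were left out. No receptor gene was called lower under any of these (0 throughout). Relative to macrophage genes, 1 gene was higher and 4 were lower, with 0 to 1 higher and 3 to 4 lower when single libraries were left out. The replicate block gave 1 higher and 5 lower there, where 90 of all 16780 genes were higher and 15960 lower. The block changed the call of Tlr7 on both scales and of no other receptor gene. The difference in endosomal minus surface log2 CPM, 0.09, was 0.69 with the median of members, 0.38 without Tlr3 and 0.03 to 0.16 when single libraries were left out. The cause of these shifts was not tested. Over all genes, 1171 were higher and 647 lower with TMM, 979 and 990 with upper-quartile factors, 1532 and 1192 with DESeq2, 1546 and 1030 with the block, and without single libraries as few as 629 higher (Aldara replicate 4) or 323 lower (Aldara replicate 3). There are 4 libraries a group, and the level of the macrophage reference differs between them. Intervals relative to macrophage genes are wide, and the cause of that width was not tested. Tlr6, Tlr11 and Tlr12 are limited by few counts.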
